A study of Mus musculus with 6 samples.

Results

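Glycolysis turns glucose into pyruvate and lactate, and its genes are classic targets of the hypoxia-inducible factors (HIF). The genes described here are 32 named genes of this pathway: glucose and lactate transporters, glycolytic enzymes, pyruvate dehydrogenase kinases, and the HIF alpha subunits with their regulators and 1 mitochondrial target. They were taken by gene name from the deposited tables of 54551 genes, where 33 rows carry these names because Aldoa stands for 2 gene identifiers. An FPKM (fragments per length of exon and per number of mapped reads) above 1 in at least 3 of the 6 libraries was required for testing. It was met by 30 of the 33 rows and by 12495 genes in all. Slc2a3, Pfkfb2 and the second Aldoa identifier fell under it.

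RNA was sequenced from granulosa cells of Gm12840-/- mice (KO, 3 libraries) and of wild type mice (WT, 3 libraries). Gm12840 is a long noncoding RNA gene. All mice were C57BL/6 and were sampled at postnatal day 21, so both groups were immature animals stimulated toward ovulation by hormones. They received 5 IU of PMSG for 48 h, which drives follicle growth, then 5 IU of hCG for 6 h. The hCG stands in for the luteinizing hormone surge. No vehicle or unstimulated group was analysed here, and how the Gm12840 allele was made is not given in the sources used here. Gm12840 itself was measured at 0.426, 0.611 and 1.45 FPKM in libraries labelled KO1 to KO3, against 1.83, 0.566 and 0.365 FPKM in those labelled WT1 to WT3, resting on 5 to 14 and 5 to 17 reads. The groups overlapped, so the targeted gene did not separate the labels (log2 fold change -0.03, adjusted p = 0.988 by limma in the fit without a filter). Every direction given below therefore rests on the labels alone. Nothing in the labels ties a library to its own animal, and the p-values then describe only the spread among these 6 samples.

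Granulosa cells line the follicle and have no blood vessels of their own until after ovulation, when capillaries grow in. They feed pyruvate and lactate to the oocyte, which burns glucose poorly itself. Under low oxygen the HIF prolyl hydroxylases (Egln genes) slow down, HIF alpha escapes the VHL ubiquitin ligase, and HIF raises glucose transporters, glycolytic enzymes and its own hydroxylase Egln3.

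The libraries did not divide by label. The first principal component over all tested genes held 83.3% of the variance and placed KO3, WT1 and WT2 (scores -55.0, -50.1 and -31.1) at one end and KO1, KO2 and WT3 (23.3, 70.8 and 42.1) at the other. Mitochondrial transcripts took 1.52%, 4.19% and 0.146% of reads in the libraries labelled KO, against 0.227%, 0.311% and 2.08% in those labelled WT. Ribosomal protein genes took 6.33%, 3.75% and 12.6%, against 13.6%, 9.87% and 4.67%. Depth was 16392098 to 19465847 reads. All 12 granulosa markers were above the filter, with Inha, an inhibin subunit, at 3973 to 8032 FPKM in the libraries labelled KO and at 5701 to 10808 FPKM in those labelled WT.

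Across the KO and WT labels, 0 of the 30 tested members passed the test, where 0% of the 12495 genes did (limma with Benjamini-Hochberg adjustment, member adjusted p 0.993 to 0.999). At an unadjusted p under 0.05 stood 1 member, Egln3, beside 91 genes or 0.728% of all, and limma-voom gave 75 genes. Log2 fold changes of KO over WT, here and below on the log2(FPKM + 1) scale, were negative for 17 members and positive for 13, with a median of -0.07. Over all tested genes the median was -0.04 and 54.958% were negative, so the members as a whole lay where other genes lay. The 95% intervals were wide, with a median half-width of 0.73 on the log2 scale over all genes. In 3 members, Egln3, Slc2a1 and Pfkp, each library labelled KO was below each library labelled WT, or 10% of the tested members beside a background of 2.08%. Members without overlap in either direction numbered 5 without KO3 and 7 without WT3, beside 21.7% and 18.2% of all genes. Of these, Bnip3 without KO3, and Epas1, Bnip3, Pfkfb3 and Pdk1 without WT3, were higher in KO, and the rest were lower. After rescaling to library totals the number was 0, beside 2.82%. With all 6 libraries, no member was higher in every library labelled KO, where 1.45% of genes were.

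**Figure D1:**
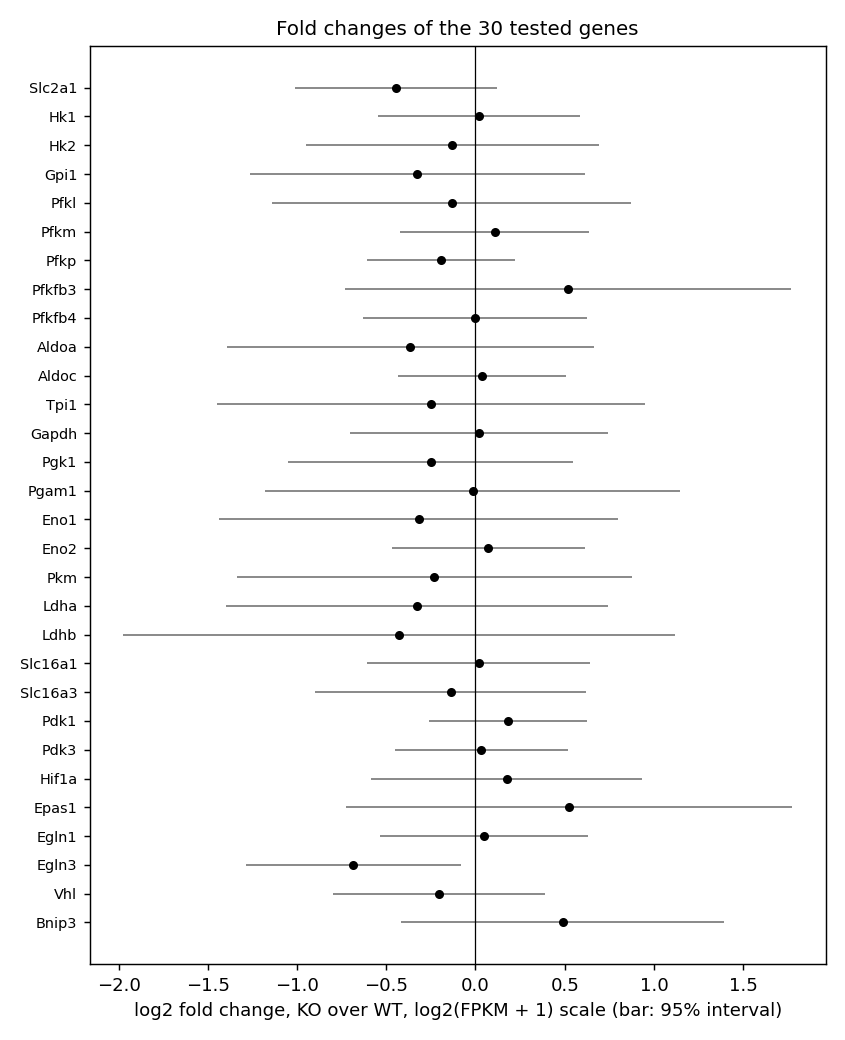
Log2 fold change of KO over WT (x axis, log2(FPKM + 1) scale) with its 95% interval for the 30 tested members, by limma, 3 libraries a group. The estimates run from -0.69 for Egln3 to 0.52 for Epas1, and the Egln3 interval is the one that leaves 0 out.

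Egln3 encodes prolyl hydroxylase 3, an enzyme that marks HIF alpha for destruction and is itself a HIF target. Its mm10 position is chromosome 12, 54178981 to 54203860, minus strand. Egln3 levels were 10.02, 12.9 and 9.98 FPKM in the libraries labelled KO1 to KO3, against 13.8, 18.8 and 22.8 FPKM in those labelled WT1 to WT3. The highest library labelled KO was thus under the lowest one labelled WT. The means were 10.96 ± 1.65 FPKM in KO and 18.5 ± 4.50 FPKM in WT (SD, n = 3 each), a ratio of 0.593. Its log2 fold change was -0.69 (95% interval -1.29 to -0.08) with an unadjusted p of 0.0312 and an adjusted p of 0.993 by limma, so it did not pass the test over all genes.

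Egln1 encodes prolyl hydroxylase 2, the main oxygen sensor acting on HIF in most cells. It gave 18.1, 19.3 and 16.4 FPKM in the libraries labelled KO, against 13.0, 19.0 and 20.7 FPKM in those labelled WT. Those groups overlapped, with a log2 fold change of 0.05 (-0.53 to 0.63). Egln2, which encodes prolyl hydroxylase 1 and is no member, was the most abundant of the 3 in each library, with 36.0, 19.7 and 85.8 FPKM in the libraries labelled KO, against 70.6, 67.6 and 31.4 FPKM in those labelled WT. As a share of all 3 hydroxylases, which no scaling between libraries alters, Egln3 made up 15.7%, 24.8% and 8.89% in the libraries labelled KO, against 14.2%, 17.8% and 30.4% in those labelled WT, and the labels overlapped. Within the pair of Egln1 and Egln3 alone its share was 35.7%, 40.1% and 37.8%, against 51.6%, 49.6% and 52.4%, without overlap. Both shares and the choice of Egln2 came after the values were seen, and no test was made of either.

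Slc2a1 encodes GLUT1, the facilitative glucose transporter of most growing cells. Its mm10 position is chromosome 4, 119108711 to 119137983, plus strand, 1407788 bp from Gm12840. It had 46.3, 34.2 and 34.0 FPKM in the libraries labelled KO1 to KO3, against 49.0, 55.3 and 51.0 FPKM in those labelled WT1 to WT3. KO1 came close to the lowest library labelled WT, while KO2 and KO3 were well below all of them. Means were 38.2 ± 7.06 FPKM in KO and 51.8 ± 3.21 FPKM in WT (SD, n = 3 each). The log2 fold change was -0.44 (-1.01 to 0.12, unadjusted p = 0.106, adjusted p = 0.993 by limma). Slc2a3, which encodes the high-affinity transporter GLUT3, had only 0.524, 0.574 and 0.359 FPKM in the libraries labelled KO and 0.270, 0.204 and 0.373 FPKM in those labelled WT, on 25 to 76 reads. GLUT1 transcripts made up 98.88%, 98.35% and 98.96% of this pair in the libraries labelled KO, against 99.45%, 99.63% and 99.27% in those labelled WT. These shares did not overlap, but they rest on the few Slc2a3 reads, and no test was made.

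Pfkp encodes the platelet subunit of phosphofructokinase-1, the committed step of glycolysis. Its mm10 position is chromosome 13, 6579768 to 6648777, minus strand. It had 5.57, 4.88 and 5.30 FPKM in the libraries labelled KO, against 6.04, 6.26 and 6.13 FPKM in those labelled WT. All 6 values were close together, at 5.25 ± 0.345 and 6.14 ± 0.110 FPKM (SD, n = 3 each), and the log2 fold change was -0.19 (-0.61 to 0.22, unadjusted p = 0.303, adjusted p = 0.993 by limma). Of its 13401 exonic bases, 748 (5.58%) are shared with the opposite-strand gene Pitrm1, which was at 31.96 to 80.1 FPKM. The library kit does not mark strand, so reads on those bases cannot be assigned.

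The separation of these 3 genes depended on how libraries were scaled. After rescaling to library totals of recovered reads, 0 members were separated. Egln3 then had 11.1, 14.2 and 8.94 in the libraries labelled KO against 12.2, 17.5 and 25.3 in those labelled WT (rescaled FPKM), with KO2 above WT1. Slc2a1 then had 51.3, 37.8 and 30.4 against 43.4, 51.4 and 56.6, with KO1 above WT1. All 3 log2 fold changes stayed negative, at -0.60 for Egln3, -0.36 for Slc2a1 and -0.12 for Pfkp.

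**Figure D2:**
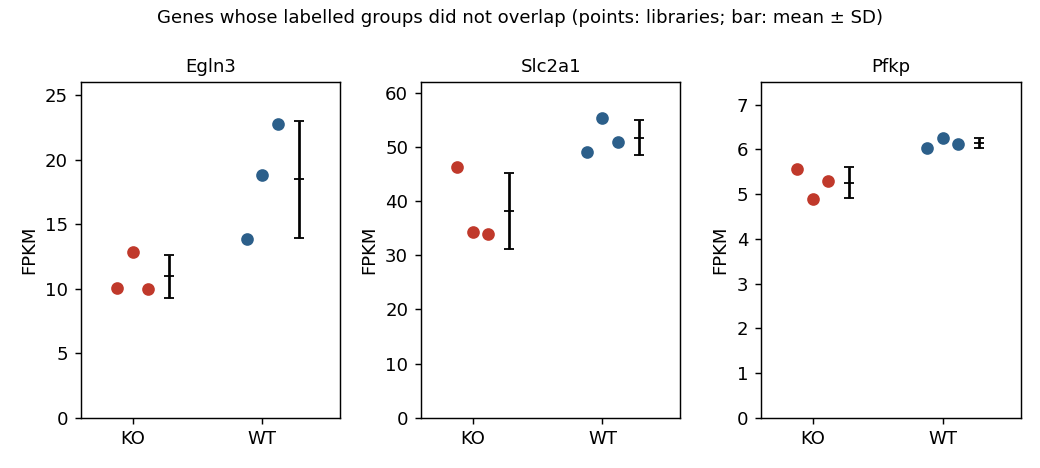
Deposited FPKM of Egln3, Slc2a1 and Pfkp in each library, KO left and WT right. Points are libraries and the bars are means with SD (n = 3 each), and in each panel every library labelled KO lies below every library labelled WT.

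The promoters of these genes are shown because HIF often binds short sites with ACGTG, a common form of the hypoxia response element core. Each line gives the 250 bases before a RefSeq transcription start (build GRCm38.p6), read 5′ to 3′ on the gene's own strand, with each ACGTG or its reverse complement CACGT in capitals. Beside them stands 1 of the 2 RefSeq promoters of Ldha, a textbook HIF target, chosen because it holds the most matches of all member promoters.
Slc2a1 (chr4:119108495-119108744, plus strand): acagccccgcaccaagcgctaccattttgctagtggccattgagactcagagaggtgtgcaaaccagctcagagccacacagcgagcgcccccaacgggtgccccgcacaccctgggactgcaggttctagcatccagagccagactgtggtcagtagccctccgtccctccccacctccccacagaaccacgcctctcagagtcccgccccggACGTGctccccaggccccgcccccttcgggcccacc
Egln3 (chr12:54203875-54204124, minus strand): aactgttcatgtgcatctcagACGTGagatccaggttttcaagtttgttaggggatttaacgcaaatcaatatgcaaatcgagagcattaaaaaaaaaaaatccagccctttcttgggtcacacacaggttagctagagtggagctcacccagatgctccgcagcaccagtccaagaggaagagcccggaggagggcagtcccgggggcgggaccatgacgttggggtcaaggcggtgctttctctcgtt
Pfkp (chr13:6648772-6649021, minus strand): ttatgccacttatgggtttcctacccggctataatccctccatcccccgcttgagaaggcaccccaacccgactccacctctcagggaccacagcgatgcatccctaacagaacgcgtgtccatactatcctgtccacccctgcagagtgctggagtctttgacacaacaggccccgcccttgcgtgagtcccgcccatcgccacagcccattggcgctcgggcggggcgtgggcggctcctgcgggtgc
Ldha (chr7:46845554-46845803, plus strand): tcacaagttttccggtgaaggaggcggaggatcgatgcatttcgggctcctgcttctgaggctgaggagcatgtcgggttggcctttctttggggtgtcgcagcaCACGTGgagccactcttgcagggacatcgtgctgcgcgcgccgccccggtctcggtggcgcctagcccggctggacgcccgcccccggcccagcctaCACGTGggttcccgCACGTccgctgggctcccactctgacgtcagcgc

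The Slc2a1 window holds 1 match, which starts 36 bases before the transcription start. The Egln3 window holds 1 match, far out at 229 bases, and the Pfkp window holds none. The Ldha window shown holds 5 matches counted on both strands, of which 2 pairs overlap in the palindrome CACGTG, at 145, 144, 48, 47 and 34 bases. The other Ldha promoter in the table (chr7:46846832-46847081) holds 0. RefSeq promoters were matched for 30 of the 32 names, and Slc2a3 and Epas1 had no entry in the table used. Of those 30 genes, 17 (56.67%) hold the motif in at least 1 of their promoters, beside 25.44% of 8602 tested genes with a promoter. Pfkfb2, which was not tested, is among the 17. A share by gene also depends on promoters per gene, with 45 promoters for the 30 members and 10884 for the 8602 genes. By promoter the figures are 21 of 45 (46.67%), beside 21.94% for tested genes and 16.57% of all 32851 promoters. Overlapping Aldoa windows among the 21 hold the same match. Median GC content was 61.6% in member promoters and 60% in promoters of tested genes, and CpG content was not compared. The motif contains a CpG and its frequency moves with GC content, and no test was made. Among tested genes with matches, KO3, WT1 and WT2 were the 3 highest libraries for Aldoa, Ldha, Pgk1 and Pkm. KO1, KO2 and WT3 were so for Hk2, Pfkfb3, Pgam1, Hif1a and Bnip3, and WT1, WT2 and WT3 for Slc2a1 and Egln3. Over all tested genes these orders held for 35.0%, 31.4% and 2.08%. Egln1, Pdk3, Pfkm, Slc16a1 and Slc16a3 had other orders.

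Hexokinases trap glucose inside the cell. Hk2, the isozyme that responds to insulin and hypoxia, had 12.7, 15.4 and 6.98 FPKM in the libraries labelled KO, against 9.26, 12.1 and 16.4 FPKM in those labelled WT. Hk1, the housekeeping isozyme, had 6.30, 5.35 and 3.97 FPKM, against 4.03, 5.23 and 6.03 FPKM. Both genes overlapped between labels (log2 fold changes -0.13 and 0.02), and Hk2 supplied 63.7% to 74.2% of the pair in KO and 69.7% to 73.1% in WT. Gpi1, which turns glucose 6-phosphate into fructose 6-phosphate, was the most abundant gene of this step. It had 45.0, 29.6 and 71.8 FPKM in the libraries labelled KO, against 67.7, 68.0 and 41.5 FPKM in those labelled WT. KO3, WT1 and WT2 were its 3 highest libraries, and its log2 fold change was -0.33 (-1.26 to 0.61).

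Phosphofructokinase-1 was mainly the liver-type subunit Pfkl. It had 19.6, 11.6 and 36.9 FPKM in the libraries labelled KO, against 23.0, 27.2 and 18.1 FPKM in those labelled WT, and made up 52.9% to 73.2% and 61.3% to 67.1% of the 3 subunits. The highest and the lowest value both carried the KO label. Pfkm, the muscle subunit, had 6.55, 5.40 and 8.23 FPKM against 6.05, 7.05 and 5.28 FPKM, with a log2 fold change of 0.11 (-0.42 to 0.64).

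The PFKFB enzymes set the level of fructose 2,6-bisphosphate, the strongest activator of phosphofructokinase-1. Pfkfb4, the isozyme best known from testis, was the most abundant here, with 22.6, 22.3 and 21.6 FPKM in the libraries labelled KO, against 15.8, 25.6 and 27.0 FPKM in those labelled WT. The KO values were close together inside the wider WT range, and the log2 fold change was -0.0045 (-0.63 to 0.62). Pfkfb3, the inducible isozyme with high kinase activity, had 8.30, 11.4 and 4.48 FPKM in the libraries labelled KO, against 2.37, 4.29 and 11.1 FPKM in those labelled WT. It had the widest relative range of the tested members, 4.82-fold between the highest and lowest library, and a log2 fold change of 0.52 (-0.73 to 1.77). KO2 and WT3 were its highest libraries. Pfkfb2, the heart-type isozyme, had 0.528 to 1.42 FPKM in KO and 0.432 to 0.954 FPKM in WT and was not tested.

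Aldoa, the ubiquitous aldolase, made up at least 99.5% of Aldoa and Aldoc in each library. It had 287, 189.7 and 446 FPKM in the libraries labelled KO, against 398, 457 and 287 FPKM in those labelled WT, with a log2 fold change of -0.37 (-1.39 to 0.66). Aldoc, the brain-type aldolase, stayed at 0.905 to 1.45 FPKM in KO and 0.950 to 1.27 FPKM in WT. The second Aldoa identifier, a neighbouring short gene model on the same strand, had 0.569 to 1.51 FPKM in KO and 0.169 to 0.975 FPKM in WT. Tpi1, triosephosphate isomerase, had 117 to 355 FPKM in KO and 159 to 313 FPKM in WT.

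**Figure D3:**
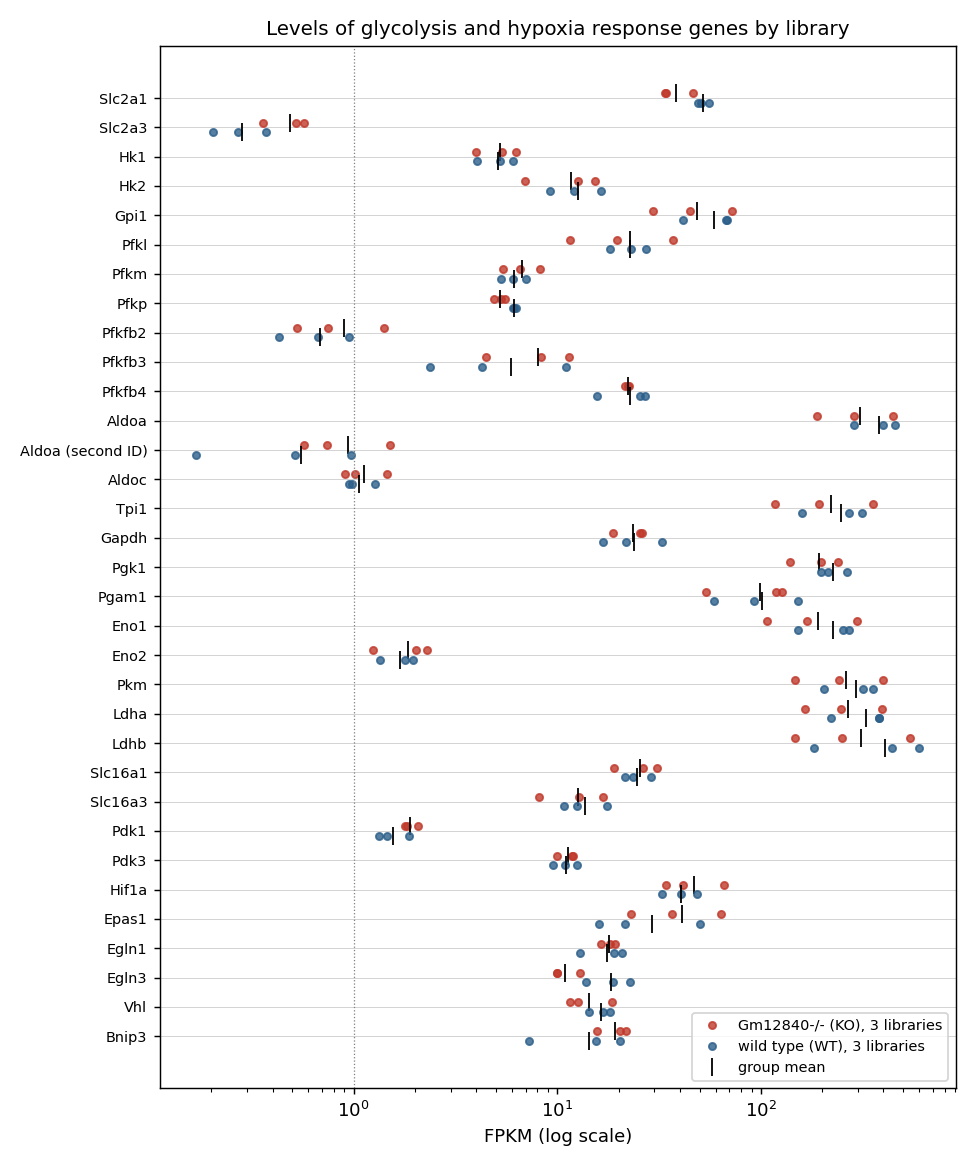
FPKM of each member in each library on a log x axis, members in pathway order from the top, libraries labelled KO drawn above libraries labelled WT. Levels run from 0.169 FPKM for the second Aldoa identifier to 600.3 FPKM for Ldhb, both in WT1. The labels overlap for the 27 tested members other than Egln3, Slc2a1 and Pfkp.

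The energy-yielding lower steps held several abundant genes, though Aldoa was above each of them on average. Pkm, pyruvate kinase, had 243, 148 and 397 FPKM in the libraries labelled KO, against 318, 354 and 204 FPKM in those labelled WT. KO2 and WT3 were the lowest and KO3 and WT2 the highest, with a log2 fold change of -0.23 (-1.34 to 0.88). Eno1, the ubiquitous enolase, ran the same way at 168, 107 and 297 FPKM against 253, 272 and 152 FPKM, and supplied at least 98.8% of Eno1 and Eno2. Eno2, the neuronal enolase, had 1.24 to 2.29 FPKM in KO and 1.34 to 1.95 FPKM in WT. Pgk1, phosphoglycerate kinase, had 139.6 to 240.3 FPKM in KO and 197 to 265 FPKM in WT.

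Pgam1 and Gapdh did not follow the other genes of these steps. Pgam1, phosphoglycerate mutase, had 118, 126 and 53.6 FPKM in the libraries labelled KO, against 58.8, 92.3 and 152 FPKM in those labelled WT, so that KO3 and WT1 were lowest. Gapdh, often used as a reference gene, had 26.1, 25.5 and 18.8 FPKM, against 21.8, 16.8 and 32.7 FPKM. Its FPKM was about an order of magnitude under that of its neighbours in the pathway. The genome holds 103 gene models with at least 95% identity to Gapdh over 300 bases or more, 99 of them pseudogenes, and these held 23.5% to 52.7% of the reads of Gapdh and its copies. How the authors treated reads with several matches is not given in the sources used here, so the Gapdh level is uncertain.

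Lactate dehydrogenase was split almost evenly between its subunits. Ldhb, the heart-type subunit, had the highest mean of all members, with 249, 147 and 539.9 FPKM in the libraries labelled KO, against 600.3, 441 and 182 FPKM in those labelled WT. KO3, WT1 and WT2 were high and KO1, KO2 and WT3 low, so each label held both, and its log2 fold change was -0.43 (-1.97 to 1.12). Ldha, the muscle-type subunit, had 246, 165 and 394 FPKM, against 381, 379 and 219.8 FPKM (log2 fold change -0.33, -1.40 to 0.74). The Ldhb share of the pair was 50.3%, 47.1% and 57.8% in the libraries labelled KO, against 61.2%, 53.7% and 45.3% in those labelled WT. It was highest in WT1 and lowest in WT3, both of the same label.

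Lactate leaves the cell through the monocarboxylate transporters. Slc16a1 (MCT1) had 26.4, 30.7 and 18.9 FPKM in the libraries labelled KO, against 28.9, 23.7 and 21.6 FPKM in those labelled WT. Slc16a3 (MCT4), the exporter typical of strongly glycolytic cells, had 12.7, 8.15 and 16.8 FPKM, against 10.8, 17.6 and 12.6 FPKM. The labels overlapped for both, with log2 fold changes of 0.02 (-0.61 to 0.64) and -0.14 (-0.90 to 0.62). MCT1 made up 52.9% to 79.1% of the pair in KO and 57.3% to 72.8% in WT.

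Pyruvate dehydrogenase kinases hold pyruvate back from oxidation in the mitochondria. Pdk3 had 11.9, 9.996 and 11.9 FPKM in the libraries labelled KO, against 9.55, 12.5 and 10.9 FPKM in those labelled WT, and was the steadier gene (log2 fold change 0.03, -0.45 to 0.52). Pdk1, a HIF target, had 1.79, 2.07 and 1.82 FPKM, against 1.46, 1.33 and 1.88 FPKM. Only WT3 reached into the KO range, and the log2 fold change was 0.18 (-0.26 to 0.63).

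**Figure D4:**
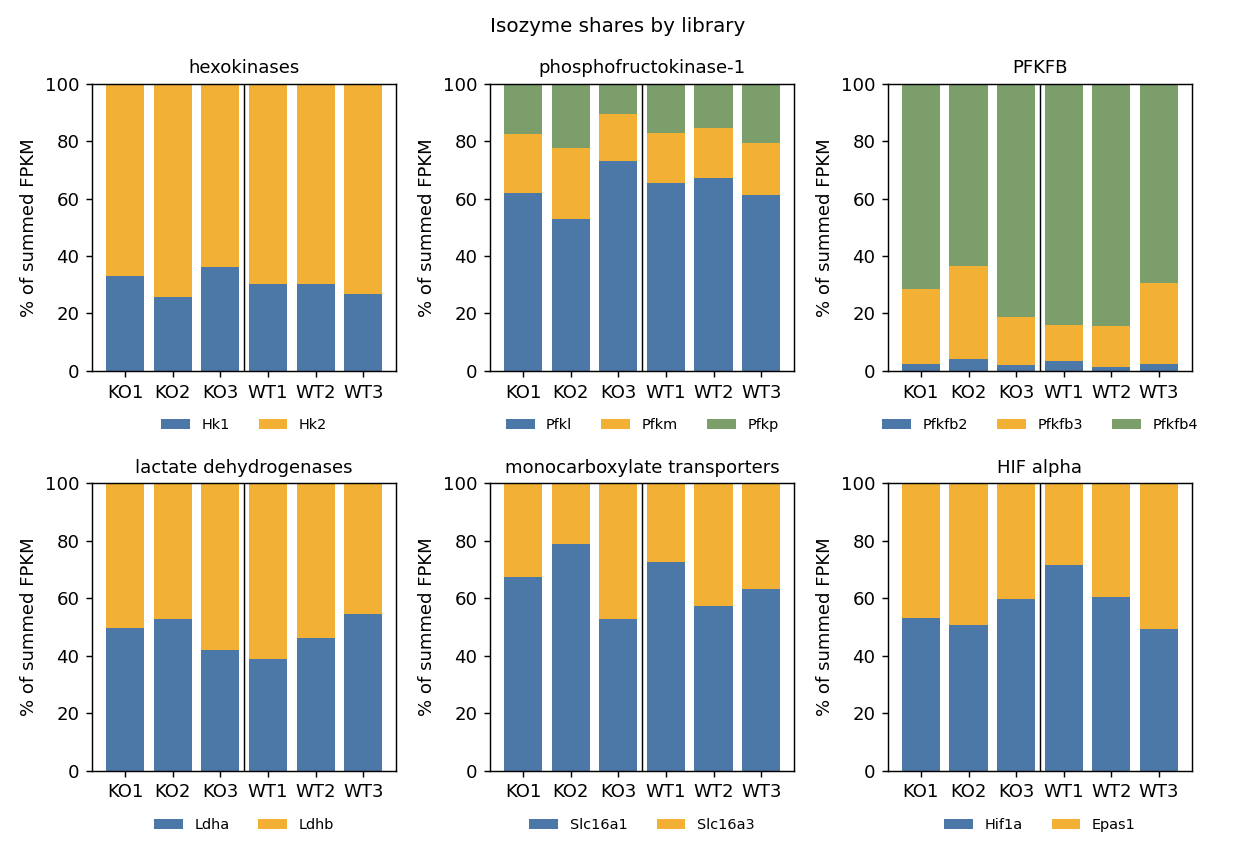
Share of summed FPKM (percent) of each isozyme in 6 families, with 1 stacked bar per library, KO left of WT. Hk2, Pfkl, Pfkfb4 and Slc16a1 are the larger parts in every library, whereas Ldhb and Hif1a range from 45.3% to 61.2% and from 49.3% to 71.6%.

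Of the HIF alpha subunits, Hif1a had 41.6, 65.6 and 34.4 FPKM in the libraries labelled KO, against 40.5, 32.8 and 48.7 FPKM in those labelled WT. Epas1, which encodes HIF2 alpha, had 36.7, 63.6 and 23.1 FPKM, against 16.1, 21.6 and 50.1 FPKM. KO2 was the highest library for both, and WT3 the second, so each label held high and low values. The log2 fold changes were 0.17 (-0.58 to 0.93) and 0.52 (-0.73 to 1.77). Hif1a made up 50.8% to 59.9% of the pair in KO and 49.3% to 71.6% in WT. HIF alpha is controlled mainly through protein stability, which RNA levels do not show.

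Vhl, the substrate receptor of the ligase that removes HIF alpha, had 11.5, 12.7 and 18.7 FPKM in the libraries labelled KO, against 16.8, 18.1 and 14.2 FPKM in those labelled WT. Bnip3, a mitophagy receptor induced by HIF, had 20.4, 21.8 and 15.6 FPKM in the libraries labelled KO, against 7.29, 15.6 and 20.3 FPKM in those labelled WT. WT1 was the lowest library for Bnip3, and the rest lay between 15.6 and 21.8 FPKM. The log2 fold changes were -0.21 (-0.80 to 0.39) for Vhl and 0.49 (-0.42 to 1.39) for Bnip3.

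Many members followed the division of the libraries that crosses the labels. KO3, WT1 and WT2 were the 3 highest libraries for 10 tested members: Gpi1, Pfkl, Aldoa, Tpi1, Pgk1, Eno1, Pkm, Ldha, Ldhb and Vhl. That is 33.3% of members, beside 35.0% of all tested genes. KO1, KO2 and WT3 were the 3 highest for 8 members: Hk1, Hk2, Pfkfb3, Gapdh, Pgam1, Hif1a, Epas1 and Bnip3. That is 26.7%, beside 31.4% of all. Both shares were near those of other genes. Single libraries weighed on these fold changes. Leaving out KO2 alone brought Aldoa, Ldha, Gpi1 and Pgk1 to -0.061, -0.025, -0.018 and -0.039, and leaving out KO3 brought them to -0.68, -0.65, -0.64 and -0.43. Epas1 was at 0.16 without KO2 and 0.98 without WT3, Pfkfb3 at 0.10 without WT1 and 1.02 without WT3, and Bnip3 at 0.094 without WT1 and 0.78 without WT3. The exonic length of the first set had a median of 3153.5 bases and that of the second 5602.5 bases, and over all genes of the same library orders the medians were 2393 and 5803 bases. Summed over tested members, FPKM was 2095, 1554 and 3106 in the libraries labelled KO, against 2861, 2985 and 1995 in those labelled WT.

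**Figure D5:**
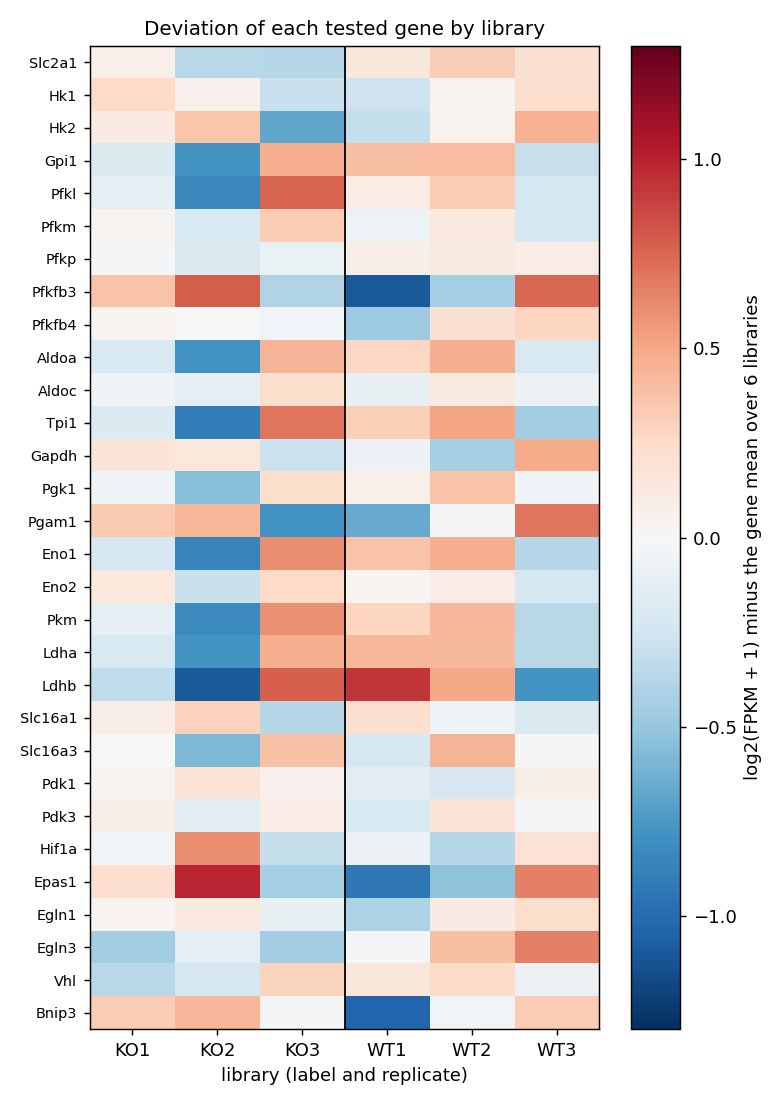
Log2 deviation of each tested member from its mean over the 6 libraries, members in pathway order, libraries labelled KO left of those labelled WT. Abundant enzymes such as Aldoa, Tpi1, Pkm and Ldhb are high in KO3, WT1 and WT2, whereas Pfkfb3, Epas1 and Pgam1 are high in KO1, KO2 and WT3.

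Erythroid marker levels ran along the same division. The 7 globin and red cell genes summed to 756, 474 and 3513 FPKM in the libraries labelled KO, against 4456, 2793 and 613 FPKM in those labelled WT. Slc4a1, the anion exchanger of the red cell membrane, reached at most 0.248 FPKM in any library, and the most abundant was Hba-a1, at 154 to 1744 FPKM in KO and 249 to 2134 FPKM in WT. Their part in the levels of Aldoa, Tpi1, Eno1, Pkm and Ldhb was not tested. Stroma, smooth muscle and theca markers had positive log2 fold changes in 10 of 10 tested genes, with a median of 0.43 and 0 called. Their summed level was 118 to 146 FPKM in KO and 81.0 to 169 FPKM in WT. In 2 of these genes each library labelled KO was above each library labelled WT, beside 1.45% of all tested genes. Of the granulosa markers, 8 had negative and 4 positive log2 fold changes, with a median of -0.24 and 0 called. Granulosa markers summed to 4916 to 9523 FPKM in KO and 6681 to 12387 FPKM in WT. Endothelial markers summed to 22.9 to 26.2 FPKM in KO and 13.4 to 23.4 FPKM in WT, oocyte markers to 229 to 355 and 252 to 413 FPKM, and leukocyte markers to 38.4 to 60.1 and 38.3 to 63.2 FPKM. Ptprc, the pan-leukocyte marker CD45, did not exceed 0.0747 FPKM, and of the 2 identifiers named Itgam 1 was at 0 throughout. The part of these cells in the values of Egln3 and Slc2a1 was not tested. In RNA from bulk cells, fewer cells of a type and less RNA per cell cannot be told apart.

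Leaving out replicate 3 of both groups sets KO1 and KO2, from one end of the first component, against WT1 and WT2 from the other. In that fit 3451 genes (27.6%) passed the test by limma, of which 1409 were higher and 2042 lower in KO. Among members 3 passed: Pfkfb3 at 1.35 (adjusted p = 0.0206) and Epas1 at 1.33 (adjusted p = 0.0246) were higher, and Ldhb at -1.42 (adjusted p = 0.0387) was lower. KO3 and WT3 ran the other way for all 3 genes: KO3 was the lowest library labelled KO for Pfkfb3 and Epas1 and the highest for Ldhb, and WT3 was the highest library labelled WT for Pfkfb3 and Epas1 and the lowest for Ldhb. With the slope of each library's values on gene length as a covariate, 0 members passed, and Egln3 was at -0.80 (adjusted p = 0.558 by limma).

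Genes near the pathway gave the same picture of 0 calls in either direction. Among other glycolytic genes, 12 of 24 were tested, 8 with a negative and 4 with a positive log2 fold change (median -0.01). Bpgm, which makes 2,3-bisphosphoglycerate and is best known from red cells, had 17.4 to 22.6 FPKM in KO and 19.7 to 26.1 FPKM in WT. Bsg, the chaperone of the monocarboxylate transporters, was the most abundant gene of the list, at 331 to 797 FPKM in KO and 398 to 782 FPKM in WT.

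For the entry of pyruvate into mitochondria and its oxidation there, 11 of 12 genes were tested, 5 negative and 6 positive (median 0.04). Pdhx, a structural subunit of the pyruvate dehydrogenase complex, had 9.9999, 9.40 and 9.95 FPKM in the libraries labelled KO, against 10.4, 12.6 and 10.8 FPKM in those labelled WT. Its labels did not overlap, but the gap was small (log2 fold change -0.18). Pdk4, the kinase induced by fasting, had 12.2, 18.7 and 4.03 FPKM, against 3.70, 5.61 and 13.1 FPKM, with KO1, KO2 and WT3 highest as for Pfkfb3. Dld, a subunit the complex shares with other dehydrogenases, had 29.97 to 41.4 FPKM in KO and 36.0 to 37.8 FPKM in WT.

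Of HIF partners and ligase subunits, 15 of 16 were tested, 8 negative and 7 positive (median -0.08). The coactivators Crebbp and Ep300 peaked in KO2, at 6.44 and 10.3 FPKM. Cited2, which competes with HIF for them, had 408 to 468 FPKM in KO and 372 to 731 FPKM in WT. Of HIF targets outside glycolysis, 27 of 28 in the tables were tested, 14 negative and 13 positive (median -0.01). The labels did not overlap for 1 target lower in KO and 1 higher, beside 2.08% and 1.45% of all tested genes. Lox, lysyl oxidase, had 17.4, 22.7 and 7.93 FPKM in the libraries labelled KO, against 4.82, 8.98 and 15.5 FPKM in those labelled WT. Ddit4, an inhibitor of mTORC1, had 64.6, 71.7 and 91.8 FPKM, against 62.1, 117 and 225 FPKM, and Cxcr4, a chemokine receptor, had 97.9 to 162 FPKM in KO and 85.8 to 182 FPKM in WT.

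The pentose phosphate list had 8 of 9 genes tested, 6 negative and 2 positive (median -0.22). Taldo1, transaldolase, had 50.9 to 178 FPKM in KO and 69.1 to 171 FPKM in WT, and H6pd, the enzyme of the endoplasmic reticulum, had 15.2 to 22.5 FPKM in KO and 11.9 to 19.1 FPKM in WT. The glucose-sensing factors and their targets had 5 of 5 genes tested, 1 negative and 4 positive (median 0.12). Mlxip and Mlxipl, which encode the sensors MondoA and ChREBP, had 2.47 to 8.42 and 1.18 to 1.72 FPKM in KO, and 2.63 to 6.01 and 0.951 to 1.47 FPKM in WT. Txnip, their target and a brake on glucose uptake, had 46.1 to 85.5 FPKM in KO and 54.6 to 110.3 FPKM in WT.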

How the data were processed

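RNA of granulosa cells was sequenced in 6 libraries, 3 labelled Gm12840-/- and 3 labelled wild type, prepared, per the labels' protocols, with a TruSeq kit that does not record strand. The authors deposited 1 table of FPKM per library. HISAT2 2.0.5 and mm10 are named per the submitters' processing notes, and for counter, annotation and scaling nothing is given in the sources used here. FPKM times gene length gave whole reads for 100% of values within 0.01 reads. The totals behind the deposited FPKM were 0.894 to 1.12 times the recovered reads. The number of sample columns left unused was 0.

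Values were tested as log2(FPKM + 1) from the deposited FPKM with limma 3.58.1 in R 4.3.3, using a mean trend for the prior variance and a single genotype term. This scale understates changes of low genes. Genes above 1 FPKM in 3 or more libraries were tested, two-sided, with Benjamini-Hochberg adjustment over 12495 genes and a threshold of 0.05. Alternatives were other pseudocounts, filters and scalings, limma-voom, protein-coding genes alone, a replicate block, leaving out libraries and a length covariate.

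Values in each library are given for the 3 members with the smallest p, members whose groups do not overlap, the most abundant member of each of 9 roles, and members of isozyme families. From other lists came the 2 genes with the smallest p and the most abundant one, of which 1 gene is not reported here. The members, lists and rules were chosen with earlier results of these data known. Other genes named, and the shares of the PFKFB, Pdk and Egln families, were chosen after their values were seen. Copies of genes were found with blastn 2.17.0 at 95% identity over 300 bases. Promoters are from RefSeq (GRCm38.p6), and figures were drawn with matplotlib 3.10.9.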

Additional observations from a re-analysis of the deposited data

How the results depend on the processing

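With 3 libraries a group the 95% intervals limit what can be seen, with a median half-width of 0.73 (log2) over all genes, and vary by gene, from -0.61 to 0.22 for Pfkp to -1.97 to 1.12 for Ldhb. The samples were treated as unpaired, as the labels give replicate numbers but state no pairing. Same-numbered libraries deviated in opposite directions (r = -0.422, -0.672 and -0.894), and with the replicate block 0 genes and 0 members were called. No member was called under 16 of 17 alternatives, but 3 were without replicate 3 of both groups, where 3451 genes were called and 22 members did not overlap (76.2% of all genes). With the length slope as covariate 1 gene was called. Members without overlap numbered 0 with library totals and 0 with upper-quartile factors (2.82% and 3.22% of all genes). Leaving out 1 library gave 3 to 7: 5 without KO replicate 3 (21.7% of all genes), 7 without WT replicate 3 (18.2%) and 3 or 4 otherwise (5.16% to 8.05%). Egln3, Slc2a1 and Pfkp had fold changes of -0.53 to -0.87, -0.37 to -0.59 and -0.15 to -0.23 there, and their lack of overlap follows from the full set.

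Signs of fold changes turned in some settings, also that of Ldhb (-0.43 in the main fit), for causes not tested. Length-slope values were 0.041 for Ldhb, 0.060 for Pkm, 0.082 for Tpi1, 0.15 for Pfkl, 0.0014 for Slc16a3, -0.00065 for Hif1a, -0.036 for Slc16a1, -0.13 for Gapdh, -0.043 for Egln1 and -0.078 for Hk1. With library totals and upper-quartile factors they were 0.071 and 0.078 for Pgam1, and 0.078 and 0.085 for Pfkfb4. Without replicate 3 of both groups they were 0.72 for Pgam1, 0.15 for Pfkfb4, 0.37 for Hk2, -0.0062 for Pdk3, -0.12 for Pfkm, -0.14 for Eno2 and -0.10 for Aldoc. Leaving out 1 library gave -0.074 to 0.11 for Aldoc, -0.15 to 0.17 for Egln1, -0.70 to 0.033 for Eno1, -0.039 to 0.24 for Eno2, -0.19 to 0.27 for Gapdh, -0.085 to 0.37 for Hif1a, -0.11 to 0.17 for Hk1, -0.35 to 0.17 for Hk2, -0.92 to 0.012 for Ldhb, -0.057 to 0.12 for Pdk3, -0.24 to 0.13 for Pfkfb4, -0.55 to 0.25 for Pfkl, -0.028 to 0.24 for Pfkm, -0.35 to 0.38 for Pgam1, -0.58 to 0.13 for Pkm, -0.13 to 0.21 for Slc16a1, -0.36 to 0.12 for Slc16a3 and -0.66 to 0.13 for Tpi1. The sign held but the size moved over 1.5 times for Aldoa (-0.68 to -0.061), Ldha (-0.65 to -0.025), Gpi1 (-0.64 to -0.018), Pgk1 (-0.43 to -0.039), Vhl (-0.40 to -0.075), Bnip3 (0.094 to 0.78), Epas1 (0.16 to 0.98), Pfkfb3 (0.10 to 1.02) and Pdk1 (0.12 to 0.27).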
